A study of Mus musculus with 14 samples.

Results

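The MYC and MAX network is a set of 10 genes for basic helix-loop-helix leucine zipper transcription factors and their partners: Myc, Mycn, Max, Mxd1, Mxd3, Mxd4, Mxi1, Mnt, Mlx and Mga. They were taken by name from the 41053 genes of both count tables, and all 10 had a row. RNA sequencing had been done on spleen B cells of C57BL/6 mice in 4 groups. The groups were germinal centre (GC) B cells labelled Tet2 knock-out (KO, 4 libraries), GC B cells labelled wild type (WT, 3 libraries), lymphoma B cells labelled with a knock-down by an shRNA against Tet2 (shTet2, 2 libraries), and control lymphoma B cells (5 libraries). TET2 is an enzyme that oxidises 5-methylcytosine in DNA. The labels used here do not give the sorting of the cells, the deleted portion of Tet2, any transgene of the lymphoma or whether the libraries of a group come from separate animals, so p-values measure only the spread between these libraries, which may be technical.

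Most proteins of this network bind DNA as pairs with MAX. MYC or MYCN with MAX recruits coactivators to the E-box CACGTG and raises transcription of genes for growth, ribosomes and metabolism. MXD1, MXD3, MXD4, MXI1 and MNT compete for MAX and bring the SIN3 corepressor with histone deacetylases to the same sites, MGA carries a T-box domain besides its MAX-binding domain and works with a polycomb repressor complex, and MLX, a relative of MAX, pairs in its place with MXD1, MXD4, MNT and the glucose-sensing MondoA. In germinal centres MYC is made by a minority of B cells, those newly selected to divide again, and deregulated MYC drives B cell lymphoma. In bulk RNA, fewer cells that make a transcript and less transcript per cell cannot be told apart.

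The genes' own promoters were examined for the network's motif, because MYC and MAX bind CACGTG (a palindrome, so the same on both strands). Promoters from RefSeq on GRCm38.p6, 250 bases before each start, were found for 9 of the 10 genes, with 11 promoters in all, several of them of Mxi1. Myc had no entry, so its promoter was not searched. The motif occurred in 3 of the 11 promoters, each of another gene, and in 6.02% of the 32851 promoters of the table. The match began 40 bases before the start of Mlx, 123 before that of Mnt and 219 before that of Mxd4. The stretches around the 3 matches are shown, with CACGTG in capitals, followed by the upstream bases of Mxd3 and Mga, the genes whose levels lay furthest apart between the cell types. They run 5′ to 3′ on the gene's strand, from chr11:101087225-101087276 (plus) for Mlx, chr11:74830776-74830831 (plus) for Mnt, chr5:34187899-34187954 (minus) for Mxd4, chr13:55329759-55329981 (minus) for Mxd3 and chr2:119896978-119897227 (plus) for Mga.
Mlx: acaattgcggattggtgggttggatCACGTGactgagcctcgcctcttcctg
Mnt: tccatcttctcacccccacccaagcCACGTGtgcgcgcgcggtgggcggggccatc
Mxd4: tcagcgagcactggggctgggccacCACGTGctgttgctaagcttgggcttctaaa
Mxd3: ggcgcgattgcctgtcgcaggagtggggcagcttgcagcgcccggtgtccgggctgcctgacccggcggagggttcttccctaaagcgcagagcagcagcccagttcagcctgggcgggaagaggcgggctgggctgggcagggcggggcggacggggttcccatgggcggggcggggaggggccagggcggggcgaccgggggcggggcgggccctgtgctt
Mga: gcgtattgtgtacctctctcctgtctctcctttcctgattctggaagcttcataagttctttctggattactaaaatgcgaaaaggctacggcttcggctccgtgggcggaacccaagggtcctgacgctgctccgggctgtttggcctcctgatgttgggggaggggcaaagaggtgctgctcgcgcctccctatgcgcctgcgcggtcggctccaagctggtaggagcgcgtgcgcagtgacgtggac
Neither of the last stretches holds CACGTG, which says only that these letters are not in this window. The 250 bases held 22 CpG dinucleotides in Mxd3 and 18 in Mga. Over the 11 promoters the number of CpGs ran from 11 to 42 with a median of 18, whereas all promoters had a median of 6 and an upper quartile of 16. CACGTG itself holds a CpG, so the motif rates of these 11 and of all promoters come from unlike sets. CpGs are the bases on which TET2 acts. DNA methylation was not analysed here.

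Total gene counts were 29487244 to 30330950 in KO-labelled, 27191862 to 30434184 in WT, 9386084 to 14741588 in shTet2-labelled and 6691167 to 18598386 in control lymphoma libraries. The lymphoma libraries stood apart, since 10 rows with over 1% of the counts of some library, among them ribosomal and mitochondrial RNA, held 46.985 to 55.906% of the counts in shTet2-labelled and 59.402 to 81.395% in control lymphoma libraries, against 2.787 to 3.092% in KO-labelled and 2.507 to 3.605% in WT libraries. Outside those rows control lymphoma libraries had as few as 1467934 counts. Tet2 itself averaged 8.86 ± 0.806 CPM (counts scaled to the library size) in KO-labelled and 8.31 ± 0.724 CPM in WT libraries (SD, n = 4 and 3; log2 fold change 0.04, SE 0.13, adjusted p = 0.909). It averaged 82.7 ± 4.71 CPM in shTet2-labelled and 94.3 ± 6.99 CPM in control lymphoma libraries (SD, n = 2 and 5; log2 fold change -0.21, SE 0.10, adjusted p = 0.295). Both shTet2-labelled libraries lay below all control libraries, but Tet2 passed the test in neither comparison, and the counts are summed over all exons of the gene, so the groups are given by their labels. Of the GC and B lineage markers, Ms4a1 averaged 1160, 1170, 1040 and 1090 CPM and S1pr2, a receptor that holds B cells in germinal centres, 283, 298, 37.7 and 5.31 CPM in KO-labelled, WT, shTet2-labelled and control lymphoma libraries, so the lymphoma libraries had this B cell marker with less of the GC marker.

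Of the 10 genes, 9 were transcribed in every library and passed the filter on low counts, and Mycn did not. Mycn, a MYC paralogue of embryonic and neural tissue, had 0, 0, 0 and 2 counts in KO-labelled, 0, 0 and 1 in WT, 0 and 0 in shTet2-labelled and 0, 0, 0, 1 and 1 in control lymphoma libraries. All of these lie at or under 3 counts in a group, the floor used here, which corresponds to 0.0165, 0.0215, 0.138 and 0.0882 CPM over the libraries of each group. Levels of the other 9 genes were compared with each other as CPM per kilobase of exon, since longer transcripts collect more reads.

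Max, the obligate partner, was the most abundant transcript per kilobase in each group, at 43.9 ± 2.01 in KO-labelled, 47.0 ± 2.78 in WT, 33.0 ± 6.38 in shTet2-labelled and 35.7 ± 1.14 CPM per kb in control lymphoma libraries (SD, n = 4, 3, 2 and 5). In KO-labelled libraries Mxd4 (18.9), Myc (17.5) and Mxd3 (15.4) came next, with ranges that overlapped from neighbour to neighbour, followed by Mlx (11.9), Mnt (8.78), Mga (3.81), Mxd1 (1.35) and Mxi1 (0.617 CPM per kb) with no overlap between neighbours. In WT libraries the order was Mxd4 (17.4), Mxd3 (17.3), Myc (15.4), Mlx (12.1), Mnt (7.58), Mga (3.78), Mxd1 (1.38) and Mxi1 (0.794 CPM per kb), where only Mxd4 with Mxd3 and Mxd3 with Myc overlapped. The order thus differed between the GC B groups only in neighbours that overlapped.

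In shTet2-labelled lymphoma libraries Max was followed by Mxd4 (20.8), Myc (18.0) and Mga (17.4), which overlapped, then Mlx (7.94), Mnt (5.61), Mxd1 (3.86), Mxd3 (2.03) and Mxi1 (1.5 CPM per kb), of which Mnt and Mxd1 overlapped. In control lymphoma libraries the order was Myc (21.5), Mga (19.2), Mxd4 (16.8), Mnt (8.44), Mlx (7.91), Mxd1 (4.11), Mxi1 (1.5) and Mxd3 (1.02 CPM per kb), with overlaps between Myc and Mga, Mga and Mxd4, and Mnt and Mlx. Mxd3 was the lowest of the 9 in control lymphoma libraries and among the top 4 in both GC B groups.

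**Figure D1:**
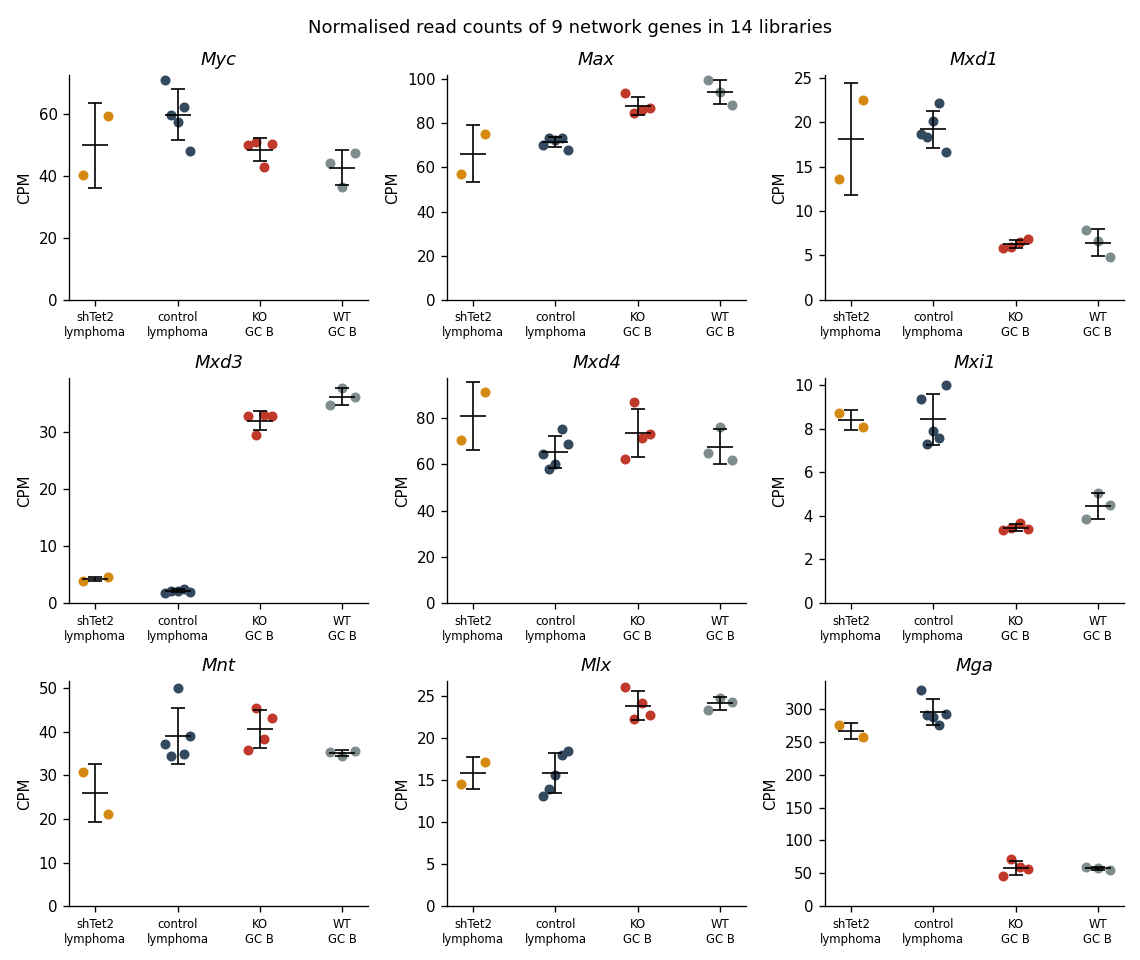
Normalised read counts (CPM, y axis from 0) of 9 network genes in each library, with points for libraries in shTet2-labelled lymphoma, control lymphoma, KO-labelled and WT groups from left to right, a line for the group mean and bars for 1 SD. KO-labelled and WT points lie close for most genes, Mxd3 stands at 1.76 to 4.51 CPM in lymphoma cells and at 29.4 to 37.6 CPM in GC B cells, and Mga at 258 to 328 CPM in lymphoma cells and 45.7 to 72.4 CPM in GC B cells.

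GC B cells labelled Tet2 KO were compared with WT GC B cells to ask whether the network differed with the loss of Tet2. None of the 9 genes passed an adjusted p of 0.05 in edgeR's quasi-likelihood test. Across all 13600 genes tested, 6.49% did, with 261 higher (1.92%) and 622 lower (4.57%) in KO-labelled libraries. The median log2 fold change was -0.07 over the 9 genes and 0.01 over all genes. At an unadjusted p under 0.05, 2 of the 9 (Mxd3 and Mxi1) and 2700 of all genes passed, and DESeq2 and limma-voom called none of the 9 either.

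Myc (chr15:61985341-61990374, plus strand, GRCm38), the activator, had 49.8, 50.8, 42.8 and 50.1 CPM in KO-labelled libraries, against 44.0, 36.3 and 47.3 CPM in WT libraries. The groups overlapped, as the lowest KO-labelled library lay below 2 of the 3 WT libraries. The log2 fold change was 0.13 (SE 0.10, adjusted p = 0.524), with an approximate 95% interval of -0.07 to 0.33. Max (chr12:76937269-76962248, minus strand) had 93.8, 84.9, 86.0 and 87.0 CPM in KO-labelled libraries, against 99.6, 94.4 and 88.5 CPM in WT libraries. Only 1 KO-labelled library reached the WT range, and the log2 fold change was -0.15 (SE 0.08, adjusted p = 0.326).

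Among the repressive partners, Mxd3 (chr13:55325168-55329758, minus strand), which is made mainly in cells that are replicating their DNA, had 32.7, 29.4, 33.0 and 32.7 CPM in KO-labelled libraries, against 34.6, 37.6 and 36.1 CPM in WT libraries. All KO-labelled libraries lay below all WT libraries, and the log2 fold change was -0.23 (SE 0.08, adjusted p = 0.126). Mxi1 (chr19:53310506-53375810, plus strand), the scarcest of the measured antagonists in these cells, had 3.35, 3.46, 3.67 and 3.38 CPM in KO-labelled libraries, against 3.86, 5.06 and 4.48 CPM in WT libraries. These groups did not overlap either, and their log2 fold change was -0.42 (SE 0.16, adjusted p = 0.142). Mnt (chr11:74830920-74845725, plus strand), the broadly expressed antagonist, had 35.8, 45.3, 38.4 and 43.0 CPM in KO-labelled libraries, against 35.3, 34.3 and 35.6 CPM in WT libraries. All 4 were above the WT libraries, the nearest by a narrow margin, and the log2 fold change was 0.16 (SE 0.09, adjusted p = 0.380). Groups without overlap were thus seen for 3 of the 9 genes, none of them called, and for 20.2% of the 13600 genes tested.

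Mxd4 (chr5:34173887-34187720, minus strand), a MAD family repressor, had 62.2 to 87.0 CPM in KO-labelled and 61.7 to 76.2 CPM in WT libraries (log2 fold change 0.07, SE 0.11, adjusted p = 0.789). Mxd1 (chr6:86647044-86669159, minus strand), a repressor that rises in differentiating cells, had 5.82 to 6.89 CPM in KO-labelled and 4.85 to 7.83 CPM in WT libraries (-0.08, SE 0.16, adjusted p = 0.844). Mlx (chr11:101087277-101092207, plus strand) had 22.3 to 26.1 CPM in KO-labelled and 23.3 to 24.8 CPM in WT libraries (-0.07, SE 0.09, adjusted p = 0.746). The ranges overlapped for each of these genes. Mga (chr2:119897228-119969581, plus strand) had 45.7, 72.4, 59.2 and 56.6 CPM in KO-labelled libraries, against 60.2, 58.2 and 55.4 CPM in WT libraries. The KO-labelled libraries enclosed the WT range on both sides (log2 fold change -0.04, SE 0.12, adjusted p = 0.912).

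Few of the listed genes around the network were called in KO-labelled GC B cells, where 6.49% of all genes were. Of 14 MYC cofactors (such as Trrap), 14 SIN3 corepressor genes, 14 genes for MYC turnover and kinases and 20 ribosome biogenesis targets, none was called in either direction, and their median log2 fold changes were 0.11, 0.01, 0.15 and 0.06, against 0.01 over all genes. Of the cofactors 12 of 14, and of the turnover and kinase genes 11 of 14, had log2 fold changes above 0. Over all genes tested, the share above 0 ran from 50.1% (up to 2 kb of exons) to 60.2% (over 10 kb). The turnover and kinase genes summed to 1320 to 1500 CPM in KO-labelled and 1150 to 1210 CPM in WT libraries, without overlap, but a background for such sums was not computed. Among these genes Trpc4ap (0.27, SE 0.08, adjusted p = 0.0569) and Pim1, a kinase that phosphorylates MYC (0.34, SE 0.10, adjusted p = 0.0592), lay just outside the threshold. Of 22 metabolic and growth targets, 1 rose and 1 fell (median 0.04). Tfrc, the transferrin receptor for iron uptake, rose to 90.8, 88.1, 77.3 and 91.1 CPM in KO-labelled libraries, against 66.7, 60.6 and 55.0 CPM in WT libraries (log2 fold change 0.46, SE 0.09, adjusted p = 0.00605). Ccnd2, the G1 cyclin D2, fell to 20.3, 24.1, 23.0 and 20.7 CPM in KO-labelled libraries, against 23.4, 32.1 and 35.2 CPM in WT libraries (-0.51, SE 0.12, adjusted p = 0.0226). Tfrc did not overlap between the groups, while the highest KO-labelled library for Ccnd2 exceeded the lowest WT library. Of 7 tested genes repressed through MYC and MIZ1, 1 fell (median -0.32), namely Nfkbia, the inhibitor of NF-kappa-B, whose log2 fold change was -0.42 (SE 0.11, adjusted p = 0.0283). The cell cycle inhibitor Cdkn1a of the same list had -0.79 (SE 0.24, adjusted p = 0.0606). Of 14 proliferation genes none was called (median 0.07).

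Markers of another cell type moved with the KO label. Of 10 macrophage markers 8 fell (median log2 fold change -1.30, none higher, none at 0 in any group), and their summed level was 21.0 to 24.0 CPM in KO-labelled and 38.0 to 51.6 CPM in WT libraries. The sum of 8 T cell markers was 80.4 to 96.5 CPM in KO-labelled and 107 to 135 CPM in WT libraries, with 1 of the 6 tested higher (Thy1) and 1 lower (Lck). Most of that sum was Lck, which averaged 87 CPM in KO-labelled and 122 CPM in WT libraries, so the sum mainly reports that gene. The part of macrophages and T cells in the levels of Mxd3, Mxi1, Mnt, Tfrc, Ccnd2 and Nfkbia was not tested. Of 11 tested GC and B lineage markers none was called (median -0.02), with summed levels of 5450 to 5890 CPM in KO-labelled and 5530 to 5610 CPM in WT libraries. Of 6 plasma cell and 4 erythroid markers tested none was called.

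shTet2-labelled lymphoma cells were compared with control lymphoma cells to ask the same of a knock-down in tumour cells. Again none of the 9 genes passed the adjusted p of 0.05, in a comparison in which 2.58% of 12797 genes did, 235 higher (1.84%) and 95 lower (0.742%). At an unadjusted p under 0.05, 3 of the 9 (Mxd3, Mnt and Mxd4) and 2447 of all genes passed. limma-voom called none of the 9, DESeq2 called Mnt, and the model of all 4 groups, which takes its estimate of spread from 14 libraries, called Mxd3 and Mnt. The median log2 fold change was -0.12 over the 9 genes and 0.00 over all genes.

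Myc had 40.1 and 59.4 CPM in shTet2-labelled libraries, against 70.8, 59.6, 57.4, 62.3 and 48.1 CPM in control lymphoma libraries. Of the shTet2-labelled libraries, 1 lay below all control libraries and the other within their range. The log2 fold change was -0.28 (SE 0.17, adjusted p = 0.404) with an approximate 95% interval of -0.61 to 0.05. It was -0.03 without shTet2 replicate 1 and -0.59 without shTet2 replicate 2. Max had 57.2 and 75.3 CPM in shTet2-labelled libraries, against 68.1 to 73.4 CPM in control lymphoma libraries, which its values enclosed (-0.13, SE 0.11, adjusted p = 0.562).

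Mxd3 had 3.92 and 4.51 CPM in shTet2-labelled libraries, against 1.76, 2.19, 2.18, 2.48 and 2 CPM in control lymphoma libraries. Both shTet2-labelled libraries lay above all 5 control libraries, on 48 and 43 counts against 9, 6, 24, 19 and 15 counts. The log2 fold change was 0.96 (SE 0.27, adjusted p = 0.0852), an approximate 95% interval of 0.42 to 1.49, and it was called in the model of all 4 groups (0.97, adjusted p = 0.00185). Mnt had 30.7 and 21.2 CPM in shTet2-labelled libraries, against 37.1, 34.3, 50, 34.8 and 39.0 CPM in control lymphoma libraries. Here both shTet2-labelled libraries lay below all control libraries, and the log2 fold change was -0.62 (SE 0.18, adjusted p = 0.0929). Mnt passed with DESeq2 (-0.61, adjusted p = 0.0490), with no filter on low counts (-0.59, adjusted p = 0.0145) and in the model of all 4 groups (-0.60, adjusted p = 0.0269), within a range over 16 alternatives of 0.00415 to 0.504 for the adjusted p. For Mxd3 that range was 0.00185 to 0.536.

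Mga had 275 and 258 CPM in shTet2-labelled libraries, against 328, 290, 288, 276 and 292 CPM in control lymphoma libraries, all of which were higher (log2 fold change -0.17, SE 0.09, adjusted p = 0.368). With Mxd3 and Mnt, groups without overlap were seen for 3 of the 9 genes, and for 21.0% of the 12797 genes tested. The 665 genes with over 10 kb of exons, Mga among them, had a median log2 fold change of -0.1 here (quartiles -0.26 and 0.08). The part of exon length in the value of Mga was not tested. Mxd4 had 70.5 and 91.2 CPM in shTet2-labelled and 58.1 to 75.4 CPM in control lymphoma libraries (0.28, SE 0.13, adjusted p = 0.242). The higher shTet2-labelled library for Mxd4 lay above the control range and the lower one within it. Mxd1 had 13.6 and 22.5 CPM in shTet2-labelled and 16.6 to 22.2 CPM in control lymphoma libraries (-0.12, SE 0.19, adjusted p = 0.766). Mxi1 had 8.74 and 8.08 CPM in shTet2-labelled and 7.31 to 10 CPM in control lymphoma libraries (-0.03, SE 0.19, adjusted p = 0.957). Mlx, the partner shared with MondoA, had 14.5 and 17.2 CPM in shTet2-labelled and 13.1 to 18.4 CPM in control lymphoma libraries (-0.03, SE 0.17, adjusted p = 0.944).

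With only 2 shTet2-labelled libraries, each decided much of these values. Without replicate 1, Mxd3 (1.05, adjusted p = 0.0459), Mxd4 (0.45, adjusted p = 0.0224) and Mnt (-0.92, adjusted p = 0.00415) were called, in a fit that assumes the lone shTet2-labelled library to vary like the controls and that called 2481 genes. Leaving out shTet2 replicate 2 or any single control library gave no call among the 9 genes.

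**Figure D2:**
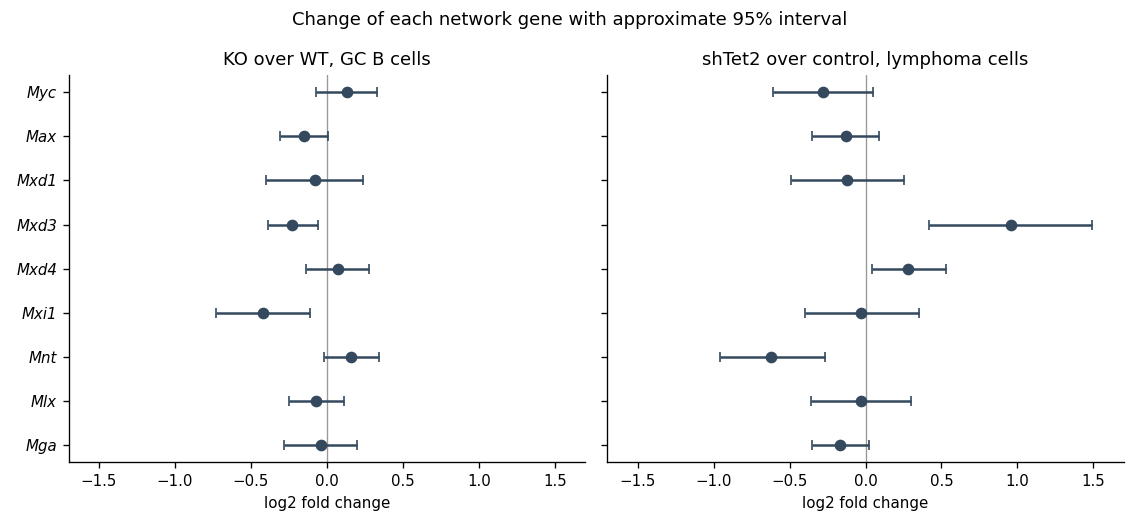
Log2 fold changes (x axis) of 9 network genes with approximate 95% intervals, for KO-labelled over WT GC B cells on the left and shTet2-labelled over control lymphoma cells on the right. On the left the points lie between -0.42 and 0.16, and on the right Mxd3 (0.96) and Mnt (-0.62) lie furthest from 0, with none called in either comparison.

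Around the network, the shTet2-labelled libraries had higher counts of cell division genes. Of 14 proliferation genes 10 rose and none fell, with a median log2 fold change of 1.79 against 0.00 over all genes. Plk1, a mitotic kinase, rose to 9.72 and 14 CPM in shTet2-labelled libraries, against 2.18 to 3.61 CPM in control lymphoma libraries (1.98, SE 0.25, adjusted p = 0.00397). The summed level of the list was 947 and 1420 CPM in shTet2-labelled libraries, against 424, 301, 360, 494 and 538 CPM in control lymphoma libraries. Both shTet2-labelled sums exceeded all the control sums, as for Mxd3, and the part of proliferation in the level of Mxd3 was not tested.

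Of the 22 metabolic and growth targets of MYC, 4 rose in shTet2-labelled lymphoma cells and none fell (median 0.36). They were Ldha, which makes lactate (log2 fold change 0.70, SE 0.13, adjusted p = 0.0154), Shmt2 and Mthfd2 of mitochondrial one-carbon metabolism (0.75, SE 0.16, adjusted p = 0.0363, and 1.03, SE 0.24, adjusted p = 0.0445) and Rcc1, the exchange factor of RAN (1.11, SE 0.24, adjusted p = 0.0327). Ldha had 108 and 155 CPM in shTet2-labelled libraries, against 73.9 to 86.3 CPM in control lymphoma libraries, without overlap. Aurka, a mitotic kinase that also stabilises the MYCN protein, was the only called gene of 14 for MYC turnover and kinases, with 8.66 and 13.3 CPM in shTet2-labelled and 3.65 to 6.26 CPM in control lymphoma libraries (1.14, SE 0.24, adjusted p = 0.0297). None of 14 cofactors (median 0.03), 14 SIN3 corepressor genes (0.07), 20 ribosome biogenesis targets (0.11) or 5 tested MIZ1-repressed genes (-0.16) was called.

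Other cell markers in the lymphoma comparison included 2 of 11 GC and B lineage markers that rose, S1pr2 (2.73, SE 0.44, adjusted p = 0.0297) and Fas (1.29, SE 0.23, adjusted p = 0.0148), and 2 of 5 tested plasma cell markers that rose, Prdm1 and Xbp1. None of 9 tested macrophage, 7 T cell or 2 erythroid markers was called. The sum of plasma cell markers was 457 and 761 CPM in shTet2-labelled and 329 to 469 CPM in control lymphoma libraries. The summed macrophage markers reached 59.3 and 186 CPM in shTet2-labelled libraries, against 58.0 to 71.1 CPM in control lymphoma libraries, so that 1 shTet2-labelled library stood above the rest. The calls among all listed genes other than the network numbered 19, against 6 without shTet2 replicate 2, 52 without shTet2 replicate 1, and 9, 11 and 6 without control replicates 1, 2 and 3. The part of GC-like, plasma or macrophage transcripts in the values of Mxd3 and Mnt was not tested.

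The 2 comparisons were then set against each other by the difference of the effects, shTet2 over control minus KO over WT. Of the 9 genes 2 were called, Mxd3 and Mnt, 1 higher and 1 lower, where 4.99% of 15441 genes were (3.39% higher and 1.61% lower). For Mxd3 the difference was 1.15 (SE 0.20, adjusted p = 0.00159), from 0.96 in lymphoma cells and -0.23 in GC B cells. For Mnt it was -0.81 (SE 0.20, adjusted p = 0.0225), from -0.62 in lymphoma cells and 0.16 in GC B cells. Neither effect was called within its own 2-group comparison, and the separate changes come from fits of 7 libraries each while the difference comes from all 14. Neither difference stayed called when libraries of equal replicate number were treated as blocks. For Mnt the call was lost without WT replicate 3 (-0.79, adjusted p = 0.0556) and without shTet2 replicate 2 (-0.61, adjusted p = 0.156). Myc had a difference of -0.45 (SE 0.20, adjusted p = 0.222), which passed only without shTet2 replicate 2 (-0.79, adjusted p = 0.0462). The other differences ran from -0.16 for Mga to 0.36 for Mxi1, with adjusted p from 0.453 to 1.

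In the same model the proliferation list had 12 of 14 genes with a higher effect in lymphoma cells and none lower (median difference 1.7, Plk1 1.92). Aurka (0.88, adjusted p = 0.0242), Rcc1 (1.01, adjusted p = 0.0137) and Mthfd2 (1.04, adjusted p = 0.0199) also had higher effects in lymphoma cells. Among the cofactors, Ruvbl2, a chromatin remodelling ATPase, had a difference of 0.55 (adjusted p = 0.0351). No SIN3 corepressor or ribosome biogenesis gene was called. Of 10 macrophage markers 4 had a higher effect in lymphoma cells, with a median difference of 1.39.

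**Figure D3:**
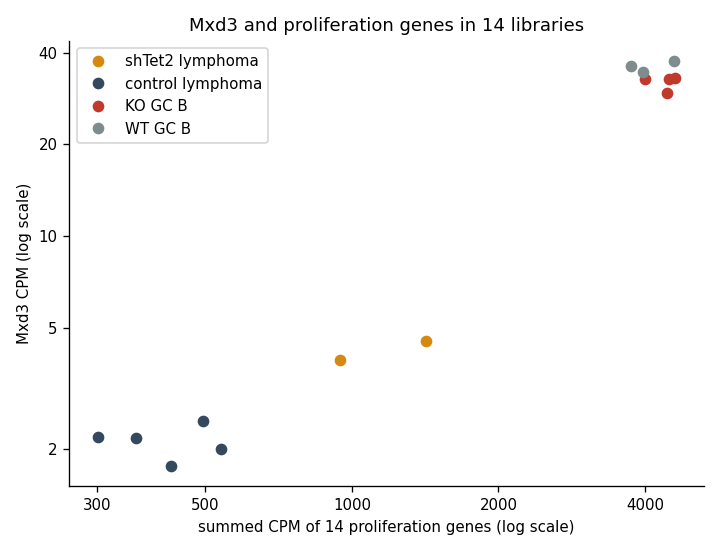
Mxd3 (CPM, y axis, log scale) against the summed CPM of 14 proliferation genes (x axis, log scale), with 1 point per library coloured by group. shTet2-labelled libraries lie at 947 and 1420 CPM of the summed list with 3.92 and 4.51 CPM of Mxd3, control lymphoma libraries at 301 to 538 with 1.76 to 2.48 CPM, and GC B libraries at 3740 to 4610 with 29.4 to 37.6 CPM.

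The largest differences in the network lay between the cell types. In control lymphoma over WT GC B cells, 7 of the 9 genes were called, 4 higher and 3 lower, against 80.7% of 15441 genes (40.2% higher, 40.4% lower), so the share of network genes called was near that of all genes. Mga rose 5.09-fold (log2 fold change 2.35, SE 0.12, adjusted p = 5.82e-13), at 276 to 328 CPM in control lymphoma and 55.4 to 60.2 CPM in WT libraries. Mxd1 rose 2.99-fold (1.58, SE 0.18, adjusted p = 6.22e-08), at 16.6 to 22.2 CPM in control lymphoma and 4.85 to 7.83 CPM in WT libraries. Mxi1 rose 1.90-fold (0.93, SE 0.16, adjusted p = 2.97e-05) and Myc 1.40-fold (0.48, SE 0.13, adjusted p = 0.00217). Each of the 7 called genes, and neither of the others, had groups without overlap, as did 74.5% of the 15441 genes tested. The lowest control lymphoma library for Myc (48.1 CPM) lay just above the highest WT library (47.3 CPM).

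Mxd3 fell to 0.0594 of its WT level in control lymphoma cells (log2 fold change -4.07, SE 0.12, adjusted p = 6.39e-16), on 73 counts in the 5 control lymphoma libraries and 5037 counts in the 3 WT libraries. Max fell to 0.759 of its WT level (-0.40, SE 0.09, adjusted p = 0.000323) and Mlx to 0.665 (-0.59, SE 0.11, adjusted p = 8.57e-05). Mnt (0.17, SE 0.13, adjusted p = 0.216) and Mxd4 (-0.04, SE 0.12, adjusted p = 0.734) did not pass. Cell type, count table and library composition cannot be told apart here. The scaling moved the whole distribution: the median log2 fold change of the 15441 genes was -0.027 with TMM, 0.109 with median-of-ratios and 0.379 with upper-quartile scaling, and it was 0.104 over the 16423 genes that passed the filter with the 10 abundant rows left out. With upper-quartile scaling Max had 0.01 (adjusted p = 0.922) and Mlx -0.18 (adjusted p = 0.141), Mnt was called (0.58, adjusted p = 0.000539) and so was Mxd4 (0.36, adjusted p = 0.00588), and with median-of-ratios Mnt was called (0.31, adjusted p = 0.0318). Relative to the median of all genes, Max lay at -0.37, Mlx at -0.56, Mnt at 0.20 and Mxd4 at -0.02 under each of the 3 scalings. These scalings shift all genes of 1 set alike, so such values could not differ between them. With the 10 abundant rows left out, which changed the genes tested, the values were -0.56, -0.75, 0.01 and -0.21. The calls of these genes thus depended on the scaling. Mxd3 (-4.18 to -3.67), Mga (2.23 to 2.76), Mxd1 (1.44 to 1.99), Mxi1 (0.81 to 1.33) and Myc (0.37 to 0.89) kept direction and call over 22 alternatives.

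Exon length moved with this comparison as well. The median log2 fold change was -0.23 over 4693 genes with up to 2 kb of exons, -0.32 over 6580 genes of 2 to 5 kb, 0.36 over 3455 genes of 5 to 10 kb and 1.25 over 713 genes above 10 kb, whose quartiles were 0.44 and 2.19. Mga, with 15340 bases of exons the longest network gene, had a value above that upper quartile, while Mxd1 (4662 bases) and Mxi1 (5619 bases) exceeded the medians of their lengths. The part of exon length in the higher Mga was not tested. Tet2 rose likewise in control lymphoma cells, 11.3-fold over WT (3.50, SE 0.11, adjusted p = 7.62e-16).

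**Figure D4:**
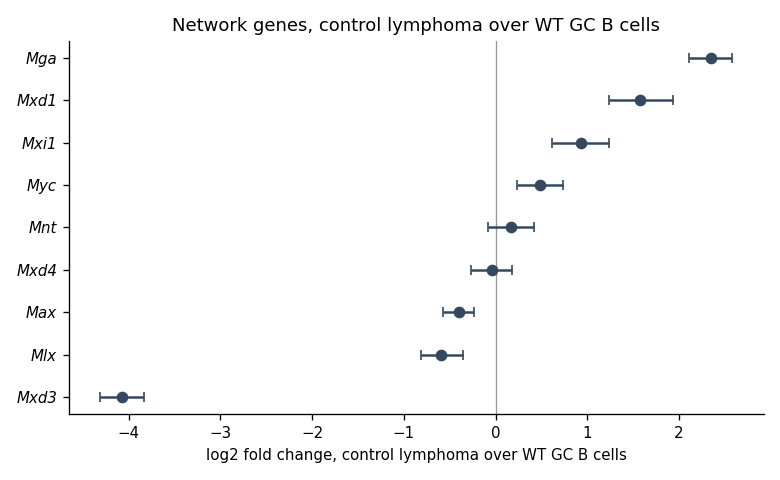
Log2 fold changes (x axis) of 9 network genes in control lymphoma over WT GC B cells with approximate 95% intervals, ordered by value from the top. Mga (2.35), Mxd1 (1.58), Mxi1 (0.93) and Myc (0.48) lie right of 0, Max (-0.40), Mlx (-0.59) and Mxd3 (-4.07) left of it, and the intervals of Mnt and Mxd4 include 0.

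Most genes of the ribosome biogenesis, metabolic and SIN3 corepressor lists were lower in control lymphoma than in WT GC B cells, beside a higher Myc. Of all 15441 genes tested, 40.4% were called lower and 40.2% higher in this comparison. Of 20 ribosome biogenesis targets 17 fell and 1 rose (median -0.86), such as Npm1, the nucleolar chaperone nucleophosmin (-1.36, SE 0.13, adjusted p = 7.44e-09). Of 22 metabolic and growth targets 19 fell and 2 rose (median -0.96). Cdk4, a G1 kinase, fell (-2.46, SE 0.11, adjusted p = 1.39e-13), and Ccnd2, its cyclin partner, rose (2.26, SE 0.16, adjusted p = 2.65e-10). The median over all genes was -0.03, and all 14 proliferation genes fell (median -3.97), so that division and target genes moved together in these groups. Of 14 SIN3 corepressor genes 11 fell and 3 rose (median -1.17), with Hdac1, a histone deacetylase, at -1.83 (SE 0.09, adjusted p = 6.04e-13) and Sin3a, the scaffold, at 0.31 (SE 0.09, adjusted p = 0.00315). Cofactors had 5 higher and 8 lower of 14 (median -0.79), MYC turnover and kinase genes 5 higher and 6 lower of 14 (median -0.10), and MIZ1-repressed genes 3 higher and 1 lower of 7 (median -0.66). Aurka of that turnover and kinase list fell (-3.94, SE 0.14, adjusted p = 5.97e-15).

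Markers moved in the same comparison, in which 80.7% of all 15441 genes tested were called (40.2% higher, 40.4% lower). Of 11 GC and B lineage markers 9 fell and 1 rose (median -1.37), of 6 plasma cell markers 4 fell and 1 rose, of 8 T cell markers 7 rose and 1 fell, of 10 macrophage markers 2 rose, and of 3 erythroid markers 1 rose and 2 fell. The T cell markers summed to 25.2 to 52.8 CPM in control lymphoma and 107 to 135 CPM in WT libraries, so the sum was lower while most of its genes were higher. Lck made up most of this sum, with means of 20.8 CPM in control lymphoma and 122 CPM in WT libraries. Some of the T cell genes that rose had few counts in the 3 WT libraries, such as Cd3e (10) and Cd8a (20). The part of other cells in the network's levels was not tested.

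The make-up of the MAX partners was described by the share of each gene in the summed CPM per kb of Myc, Mycn, Mxd1, Mxd3, Mxd4, Mxi1, Mnt and Mga. These are shares of levels per kb of exon, and not of transcript numbers or of proteins. The sum itself was 66.4 ± 4.02 in KO-labelled, 63.7 ± 0.624 in WT, 69.2 ± 7.92 in shTet2-labelled and 72.7 ± 3.90 CPM per kb in control lymphoma libraries (SD, n = 4, 3, 2 and 5). Myc made up 26.4 ± 1.97% in KO-labelled, 24.1 ± 3.36% in WT, 25.8 ± 4.17% in shTet2-labelled and 29.6 ± 2.89% in control lymphoma libraries. Its share thus lay within a narrow span, with overlapping ranges between each labelled group and its control.

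The antagonists Mxd1, Mxd3, Mxd4, Mxi1 and Mnt together made up 67.9 ± 1.45% in KO-labelled and 69.9 ± 3.35% in WT libraries, and 48.9 ± 0.141% in shTet2-labelled and 44.0 ± 3.09% in control lymphoma libraries. Both shTet2-labelled shares (48.8 and 49.0%) lay above the highest control share (47.1%). Mxd3 alone held 2.93 ± 0.0424% in shTet2-labelled and 1.41 ± 0.197% in control lymphoma libraries, against 23.2 ± 2.46% in KO-labelled and 27.2 ± 0.902% in WT libraries. Mga held 25.4 ± 4.03% in shTet2-labelled and 26.5 ± 1.51% in control lymphoma libraries, against 5.72 ± 0.785% in KO-labelled and 5.93 ± 0.262% in WT libraries. Mga thus took in lymphoma cells about the share that Mxd3 had in GC B cells. The part of exon length (15340 bases in Mga and 2081 in Mxd3) in these shares was not tested. Max stood at 0.664 ± 0.0661 of the summed partners in KO-labelled and 0.737 ± 0.0458 in WT libraries, and at 0.476 ± 0.0375 in shTet2-labelled and 0.492 ± 0.0288 in control lymphoma libraries. In CPM per kb the summed antagonists stood at 2.59 ± 0.248 times Myc in KO-labelled, 2.95 ± 0.586 in WT, 1.92 ± 0.318 in shTet2-labelled and 1.51 ± 0.251 in control lymphoma libraries.

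**Figure D5:**
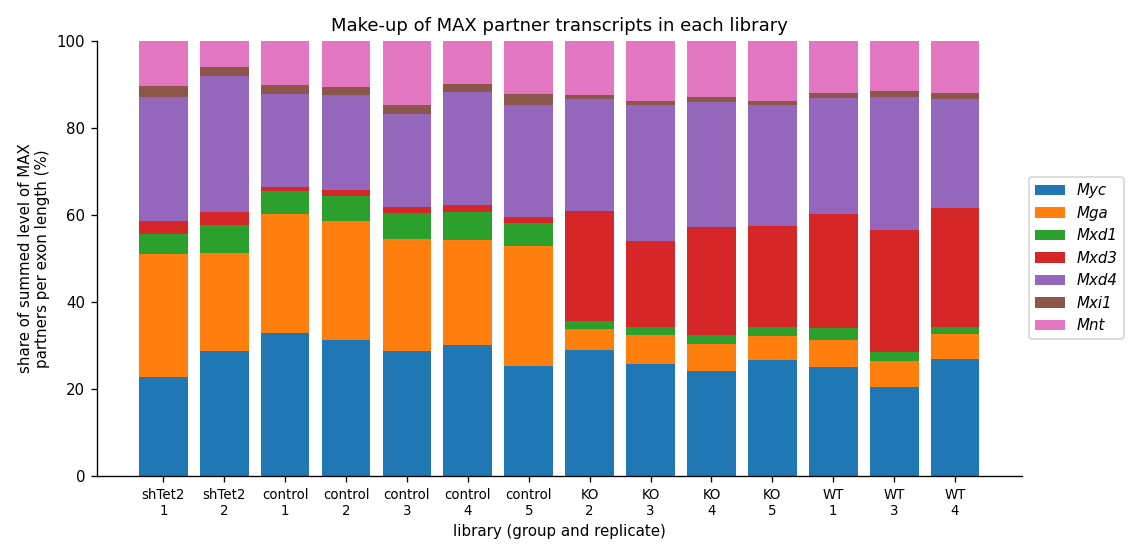
Share of each MAX partner gene in the summed CPM per kb of the partners (y axis, percent), with 1 stacked bar per library labelled by group and replicate. Mxd3 holds 1.08 to 2.96% in the lymphoma libraries and 19.8 to 28.1% in the GC B libraries, and Mga holds 22.5 to 28.2% in the lymphoma libraries and 4.79 to 6.62% in the GC B libraries.

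Other genes of the MYC and MLX families were measured for comparison. Mlxip, which encodes the glucose sensor MondoA, had 79.7 to 127 CPM in KO-labelled and 80.2 to 82.4 CPM in WT libraries (log2 fold change 0.28, SE 0.12, adjusted p = 0.215). It had 110 and 114 CPM in shTet2-labelled and 123 to 140 CPM in control lymphoma libraries (-0.24, SE 0.10, adjusted p = 0.198). Mlxip was thus called in neither comparison. It was higher in control lymphoma than in WT cells (0.69, SE 0.11, adjusted p = 9.89e-06). Mycl, the third MYC paralogue, had 0.859 to 1.16 CPM in KO-labelled and 0.527 to 1.06 CPM in WT libraries and was not called.

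The genes whose log2 CPM followed Myc most closely over the 14 libraries were Pdk1, a kinase that inhibits pyruvate dehydrogenase (Pearson r = 0.923), the antisense transcript Appbp2os (0.889) and the choline kinase Chka (0.873). The 14 points share 4 groups, 2 tables and the lymphoma libraries' composition, so these values are a description. Pdk1 averaged 24.4 ± 1.13 in KO-labelled, 22.6 ± 1.04 in WT, 28.0 ± 8.19 in shTet2-labelled and 31.7 ± 3.01 CPM in control lymphoma libraries, the same order of groups as for Myc (48.4, 42.5, 49.8 and 59.6 CPM). By Spearman's rho the 3 closest were Pdk1 (0.938), Ms4a14 (0.877) and Ifitm6 (0.866), so that 1 of the 3 was shared.

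Exon overlaps bear on 3 of the genes, since the headers of the count tables show no option for strand or for reads that fall in exons of more than 1 gene. Of the exon bases of Mlx, 19.3% overlap Psmc3ip on the opposite strand, of those of Mxd3 5.0% overlap Prelid1, and of those of Mxi1 3.45% overlap Gm10197, which had 0 counts. With neither option, reads that fall in such an overlap cannot be assigned to 1 gene, so they may be missing from its counts. The other 7 genes had no such overlap.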

How the data were processed

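Whole-transcript mRNA libraries (TruSeq stranded kit, per the labels' protocols) of 14 samples were deposited as 2 tables of gene counts by the authors, 1 for GC B cells and 1 for lymphoma cells, with 41053 genes each. Per the file headers, reads were counted over exons by gene name with featureCounts 1.5.1 on GENCODE vM3. The submitters' processing notes name STAR 2.3.0e and GRCm38.p3. From the deposited counts, edgeR 4.0.16 (R 4.3.3) was run with TMM scaling, filterByExpr, a robust quasi-likelihood fit and Benjamini-Hochberg adjustment over all genes tested, separately for KO against WT and shTet2 against control, and in a model of all 4 groups for the difference of effects and for control lymphoma against WT. Genes were called at an adjusted p under 0.05, and intervals cover approximately 95%. A floor of 3 counts was used for undetected genes, and floors cover counting error only. CPM levels use 1 TMM scaling of all libraries, and CPM per kb divides by the deposited exon length. The step was tested on simulated data. No 2 libraries agreed within sampling noise.

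The network genes, the other gene lists and the rule for named genes (all members, then up to 3 genes per list with the smallest adjusted p) were chosen with earlier results of these data known. The exon-length groups, the gene examples outside that rule, and the markers given by level were chosen after values were seen. Alternatives were other scalings, filters on low counts (none, or 1 CPM), the 10 rows over 1% left out, DESeq2 1.42.0, limma-voom (limma 3.58.1), leaving out each library, a replicate block and, for shares, TPM computed from the deposited counts. Samples were grouped by their labels. Some results are not reported here.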

Additional observations from a re-analysis of the deposited data

Results flagged for a closer look

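Within the KO-labelled GC B cells, Myc in replicate 4 (42.8 CPM) lay apart from the other 3 libraries (49.8 to 50.8 CPM), and Mxd3 in replicate 3 (29.4 CPM) lay apart from the other 3 (32.7 to 33.0 CPM). These were 2 of 18 gene and group combinations looked at, and chance singles out about 1 in 20. The effect of the label differed between lymphoma and GC B cells for Mxd3 by 1.15 on the log2 scale (adjusted p = 0.00159) and for Mnt by -0.81 (adjusted p = 0.0225), in the edgeR model of all 4 groups.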

How the results depend on the processing

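For KO over WT, none of the 9 genes was called under any of the 16 alternatives. All genes called numbered 883, against 1365 without a filter on low counts, 570 with the replicate block and 607 to 944 when leaving out a library, and listed genes called numbered 13, against 21 without a filter. Direction changed for Mxd1 (0.09) and Mga (0.16) with the replicate block, for Mga in the model of all 4 groups (0.01), and when leaving out a library for Mxd1 (-0.25 to 0.09), Mxd4 (-0.03 to 0.16) and Mga (-0.16 to 0.07). For shTet2 over control, all genes called numbered 330, against 782 without a filter, 599 with DESeq2, 4 with the replicate block, 840 in the model of all 4 groups and 100 to 2481 when leaving out a library (2481 without shTet2 replicate 1, 130 without shTet2 replicate 2, and 127, 143, 100 and 189 without control replicates 1 to 4). The network genes called numbered 1 without a filter, 1 with DESeq2, 2 in the model of all 4 groups and 0 to 3 when leaving out a library. Listed genes called numbered 19, against 29 with DESeq2, 1 with the replicate block, 37 in the model of all 4 groups and 6 to 52 when leaving out a library. Direction changed for Mlx with the replicate block (0.20) and when leaving out a library for Max (-0.34 to 0.05), Mxd1 (-0.52 to 0.19), Mlx (-0.16 to 0.08) and Mxi1 (-0.10 to 0.04). For the difference of effects, all genes called numbered 771, against 1166 with DESeq2, 256 with the replicate block and 283 to 2001 when leaving out a library (499 without KO replicate 5, 455 without WT replicate 3, 2001 and 283 without shTet2 replicates 1 and 2, 510 without control replicate 3). The network genes called numbered 2, against 0 with the replicate block (Mxd3 1.35, adjusted p = 0.105, Mnt -0.72, adjusted p = 0.184) and 1 to 2 when leaving out a library, and listed genes 28, against 13 with the replicate block and 9 to 46 when leaving out a library (18 without WT replicate 3). Direction changed for Mlx with the 1 CPM filter (0.00) and the replicate block (0.30), and when leaving out a library for Max (-0.26 to 0.17), Mlx (-0.16 to 0.11), Mxd1 (-0.51 to 0.25) and Mxd4 (-0.05 to 0.35). For control lymphoma over WT, 7 or 8 network genes were called under all 22 alternatives. Direction changed for Max with upper-quartile scaling (0.01), and for Mxd4 with median-of-ratios (0.09), upper-quartile scaling (0.36), the 1 CPM filter (0.06), DESeq2 (0.09) and when leaving out a library (-0.12 to 0.07). Myc's share of the partners was 26.4, 24.2, 25.8 and 29.6% by TPM in KO-labelled, WT, shTet2-labelled and control lymphoma libraries. The cause of these changes was not tested, except that leaving out a library also leaves fewer samples.

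Equal replicate numbers did not deviate together (the correlation of deviations was 0.03 and -0.03 for GC B replicates 3 and 4, and -0.04 and -0.01 for lymphoma replicates 1 and 2). With 2 shTet2-labelled libraries the deviations of each mirror the other, so the lymphoma values are not independent. No label says what an equal number shares, and these correlations cannot decide it. The replicate block was not fitted for control lymphoma over WT, whose numbers name different cells. Depth limits Mxd3 in lymphoma cells most, where control libraries held 6 to 24 counts.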
